A study of Rattus norvegicus with 12 samples.

Results

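Amino acids cross cell membranes through carrier proteins of the solute carrier (SLC) superfamily. The 6 families described here are Slc1a (acidic amino acids, and small neutral ones), Slc3a (heavy chains that carry partner subunits to the cell surface), Slc7a (cationic amino acid carriers and the light chains that pair with a heavy chain), Slc36a (proton-coupled carriers), Slc38a (sodium-coupled neutral amino acid carriers) and Slc43a (chiefly large neutral amino acids). The members are the probe sets whose single annotated symbol began with one of these family names plus a number, 39 of the 15310 probe sets with exactly 1 symbol, each for a different gene. One of them, Slc7a6os, matched by name alone: it is the gene on the opposite strand to Slc7a6 and is no carrier, which left 38 carriers. A log2 signal is the deposited brightness of a probe set on a log2 scale, so a difference of 1 is a doubling. Members with a mean log2 signal above 6 over all arrays were described as expressed (11 members, 10 of them carriers), and the other 28 apart from them.

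The samples were livers of rats of the Diet-induced obese Sprague-Dawley strain, all male and aged 20 weeks, 12 in all and 4 for each diet, each on an array of its own. From 12 weeks of age all rats had free access for 8 weeks to a diet rich in fat and sucrose, with 4.6 kcal per gram and 10% of energy as protein. That protein was casein alone (the control), skim milk powder (the dairy diet), or casein at 7.1% with free leucine at 2.9% of energy (the leucine diet). Added leucine therefore cannot be told apart from less casein, nor dairy protein from the rest of skim milk powder. Replicates were read as 1 rat each. The p-values for differences between diets set diet means against the spread between samples of the same diet.

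The liver takes up most amino acids that arrive in portal blood. Slc38a3 and Slc38a2 bring glutamine, alanine and other neutral amino acids into hepatocytes, Slc38a4 also accepts cationic ones, and Slc7a2 is the main hepatic carrier of arginine and lysine. Leucine enters cells through Slc7a5 or Slc7a8, each paired with the heavy chain Slc3a2, and through Slc43a1 and Slc43a2. When amino acids are scarce, the transcription factor ATF4 binds amino acid response elements and raises the transcription of several of these carriers, among them Slc7a11, Slc7a5, Slc3a2 and Slc38a2.

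Sequences upstream of 5 members are shown because the values below turn on them: Slc1a4 and Slc7a1 followed a marker score across livers, Slc38a4 had the smallest p between dairy and casein and Slc38a2 between leucine and dairy, and Slc1a4, Slc7a1 and Slc38a1 are the members whose window held the motif searched. Each is the 250 bases before the gene's start in RefSeq's promoter table (build GRCr8, 5′ to 3′ on the gene's strand), and capitals mark the core of the amino acid response element, TGATGNAA on either strand.
Slc1a4 (chr14:98761563-98761812, minus strand): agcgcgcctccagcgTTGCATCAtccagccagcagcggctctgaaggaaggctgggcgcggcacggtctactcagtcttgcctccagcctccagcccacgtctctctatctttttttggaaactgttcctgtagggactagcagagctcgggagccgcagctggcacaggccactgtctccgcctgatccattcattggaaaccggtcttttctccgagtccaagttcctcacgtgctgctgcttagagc
Slc7a1 (chr12:11664238-11664487, plus strand): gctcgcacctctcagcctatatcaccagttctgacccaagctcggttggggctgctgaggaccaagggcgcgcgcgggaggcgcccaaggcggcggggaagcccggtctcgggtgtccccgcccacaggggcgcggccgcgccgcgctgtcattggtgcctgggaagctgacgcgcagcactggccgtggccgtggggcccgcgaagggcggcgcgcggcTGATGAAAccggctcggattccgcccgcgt
Slc38a1 (chr7:129681402-129681651, minus strand): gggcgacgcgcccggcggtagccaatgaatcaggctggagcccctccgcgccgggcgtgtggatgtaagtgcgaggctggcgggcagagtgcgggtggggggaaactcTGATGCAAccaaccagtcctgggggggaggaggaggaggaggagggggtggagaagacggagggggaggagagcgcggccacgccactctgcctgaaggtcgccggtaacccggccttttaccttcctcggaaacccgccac
Slc38a2 (chr7:129742620-129742869, minus strand): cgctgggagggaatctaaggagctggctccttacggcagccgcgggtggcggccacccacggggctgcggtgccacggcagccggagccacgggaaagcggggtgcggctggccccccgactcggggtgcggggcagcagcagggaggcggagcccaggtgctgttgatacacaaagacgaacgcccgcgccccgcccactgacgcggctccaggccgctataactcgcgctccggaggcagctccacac
Slc38a4 (chr7:130082170-130082419, minus strand): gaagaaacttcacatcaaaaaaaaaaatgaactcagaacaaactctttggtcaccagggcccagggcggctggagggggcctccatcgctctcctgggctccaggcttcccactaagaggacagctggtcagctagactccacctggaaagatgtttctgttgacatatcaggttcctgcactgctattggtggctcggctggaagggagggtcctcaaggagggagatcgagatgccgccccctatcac
Of the 39 members 31 had an entry in that table, with 35 windows. The core occurred in 3 of the 35 windows (8.57%), those of Slc1a4, Slc7a1 and Slc38a1, and in 1139 of all 33469 windows (3.4%). It lay 235 to 228 bases before the start in Slc1a4, where it reads TTGCATCA on the gene's strand, 30 to 23 bases before it in Slc7a1 (TGATGAAA) and 142 to 135 bases before it in Slc38a1 (TGATGCAA). A match is a description of letters, not a bound site, and the windows without one say nothing of elements elsewhere in those genes.

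All 12 hepatocyte markers had a mean log2 signal above 6, and their mean per array lay between 12.23 and 12.75. The SD over probe sets of an array ran from 2.07 (dairy replicate 3) and 2.14 (casein replicate 4) to 2.33. By SD, signals were least spread on these 2 arrays.

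No member passed limma's threshold in any comparison (0 of 39 at an adjusted p under 0.05, Benjamini-Hochberg over the 15310 probe sets). Between dairy and casein 13 probe sets were called in all, or 0.0849%, and between leucine and casein and between leucine and dairy 0%. At an unadjusted p under 0.05 the dairy comparison held 3 of the 11 expressed members, all lower with dairy, where 15.4% of all expressed probe sets had such a p and 10.5% had one and were lower. In the comparison of leucine with casein 0 of 11 had one (4.16% of expressed probe sets), and between leucine and dairy 3 of 11, all higher with leucine (10.9%, and 7.2% higher). A moderated F test over the 3 diets gave an unadjusted p under 0.05 for 2 of 39 members, Slc38a4 and Slc38a2 (7.76% of all probe sets), and a lowest limma adjusted p of 0.583. What follows gives levels, differences and intervals, none of which was called.

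Most expressed members had their lowest mean signal with dairy, by differences that were not called. Against casein 10 of the 11 expressed members were lower, with a median log2 difference of -0.43, beside -0.16 over all 6251 expressed probe sets, 66.2% of which were lower. Against dairy 9 of 11 were higher with leucine (median 0.36, beside 0.12 over all expressed probe sets, 37.4% of which were lower). With leucine against casein 7 of 11 were lower (median -0.12, beside -0.033 and 56.5%). For 8 of 11 members (72.7%) dairy had the lowest of the 3 means, as it did for 54.6% of expressed probe sets. The comparisons share samples and are not independent of each other. These counts changed when arrays were left out or weighted, and the cause of the changes was not tested. Without casein replicate 4 and dairy replicate 3 together, 8 of 11 were lower with dairy than with casein (median -0.30). In that setting 7 of 11 were higher with leucine than with dairy (median 0.19). Array weights were lowest for casein replicate 4 (0.293) and dairy replicate 3 (0.296) and highest for dairy replicate 2 (2.83). With array weights 6 of 11 were lower with dairy than with casein and the median was -0.081, that of Slc36a1. Over all expressed probe sets the median was then -0.12 and 59% were lower, so with array weights the members stood no lower than expressed probe sets in general. In bulk liver RNA, fewer cells of a type and less RNA per cell cannot be told apart.

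**Figure D1:**
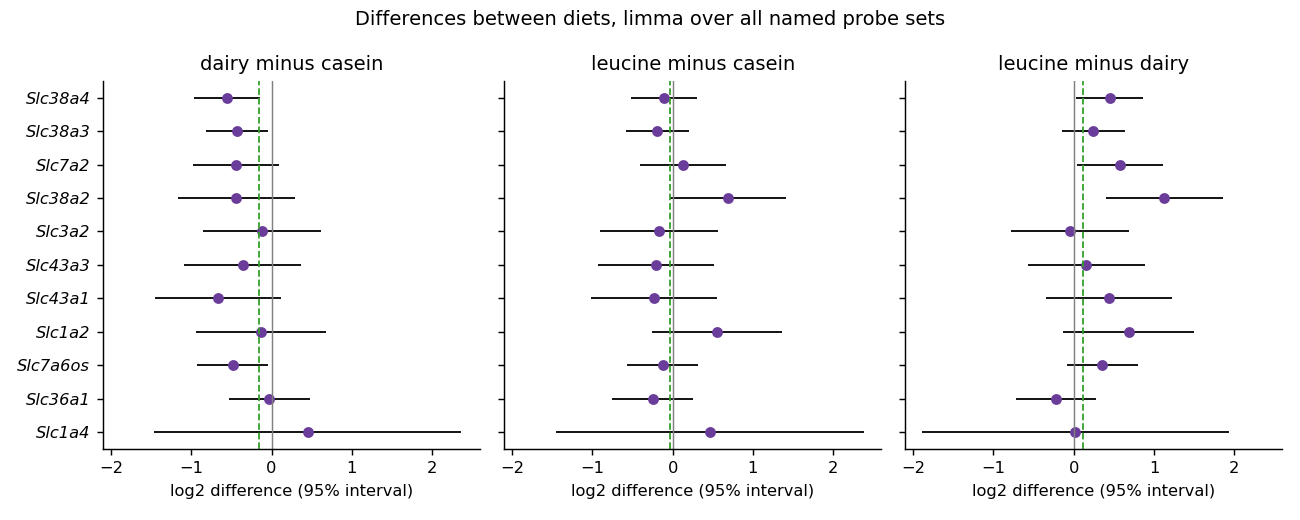
Log2 differences between diets for the 11 expressed members (points) with limma's 95% intervals (lines), the median of all 6251 expressed probe sets (dashed) and zero (solid). Dairy minus casein points lie below zero for all but Slc1a4, and Slc38a2 lies farthest above zero for leucine minus dairy, at 1.13.

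The sodium-coupled carriers Slc38a4, Slc38a3 and Slc38a2 were the 3 expressed members of their family, and all had their lowest mean with dairy. Slc38a4 stood at log2 signals of 12.69, 12.52, 12.46 and 12.01 with casein, 12.07, 11.78, 11.73 and 11.88 with dairy, and 12.38, 12.70, 11.91 and 12.25 with leucine (replicates 1 to 4 in order, here and below). The dairy livers lay low, and only casein replicate 4 and leucine replicate 3 came within their range. The means were 12.42 ± 0.293 with casein, 11.86 ± 0.153 with dairy and 12.31 ± 0.326 with leucine (SD, n = 4 each). Dairy differed from casein by -0.56 ± 0.191 (SE), a 1.47-fold lower signal, with a 95% interval of -0.97 to -0.14 and limma's unadjusted p = 0.0129 (limma adjusted p = 0.347). Leucine lay 0.45 ± 0.191 (SE) above dairy (unadjusted p = 0.0371) and differed from casein by -0.11 ± 0.191 (SE). With array weights the dairy difference was -0.70 and passed (limma adjusted p = 0.0289), in a fit that called 1182 probe sets, or 7.72%; over the other alternatives its adjusted p lay between 0.0755 and 0.802.

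Slc38a3, the system N carrier that moves glutamine in either direction, was the one expressed member whose dairy and casein groups did not overlap, as in 6.08% of expressed probe sets; none was free of overlap between leucine and casein (2.96%) or leucine and dairy (6.64%). Its signals were 11.80, 11.79, 11.70 and 11.55 with casein, 11.53, 11.51, 10.84 and 11.24 with dairy, and 11.37, 11.90, 11.40 and 11.42 with leucine. Every casein liver stood above every dairy liver, narrowly at the nearest, and leucine replicate 2 stood apart from the other leucine livers. The difference of dairy from casein was -0.43 ± 0.18 (SE; unadjusted p = 0.0336, limma adjusted p = 0.427), that of leucine from casein -0.19 ± 0.18 and that of leucine from dairy 0.24 ± 0.18 (SE). Without dairy replicate 3 the first was -0.28.

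Slc38a2, the system A carrier that cells raise when amino acids run short, had the largest difference of any expressed member, between leucine and dairy. It stood at 9.53, 9.90, 10.42 and 10.65 with casein, 9.42, 9.76, 8.92 and 10.66 with dairy, and 11.06, 10.65, 10.61 and 10.95 with leucine. The leucine livers were all high and close together, and dairy replicate 4 alone of the dairy livers reached them. The means were 10.82 ± 0.222 with leucine, 10.13 ± 0.503 with casein and 9.69 ± 0.734 with dairy (SD, n = 4 each). Leucine exceeded dairy by 1.13 ± 0.335 (SE), 2.19-fold, with an interval of 0.40 to 1.85 (unadjusted p = 0.00531, limma adjusted p = 0.657). It exceeded casein by 0.69 ± 0.335 (SE; interval -0.035 to 1.42, unadjusted p = 0.0604), with casein replicate 4 inside the leucine range. Dairy differed from casein by -0.44 ± 0.335 (SE), by -0.76 without dairy replicate 4, by -0.18 without dairy replicate 3 and by 0.019 with array weights. The leucine-to-dairy difference kept its sign under each alternative, between 0.87 and 1.45 with a limma adjusted p from 0.182 to 0.975.

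**Figure D2:**
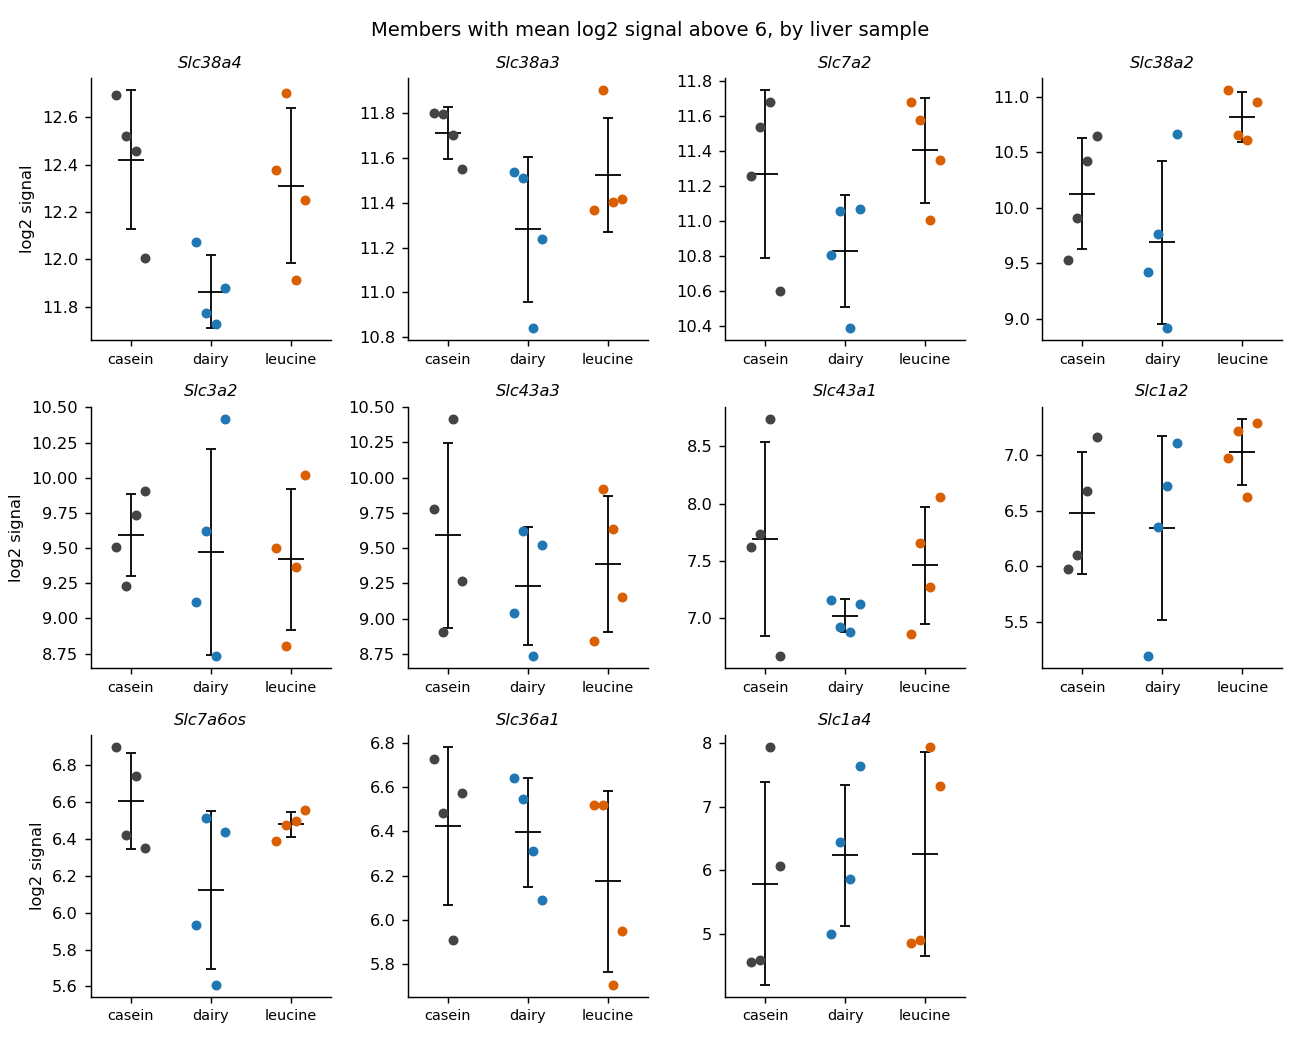
Log2 signal of each of the 11 expressed members in the 12 liver samples (points, by diet), with the diet mean and SD (bars); each panel has its own scale, which does not start at zero. Slc38a4 and Slc38a3 sit lowest with dairy, Slc38a2 sits highest and tightest with leucine, and Slc1a4 is spread widely in each diet, at 4.56, 4.59, 7.94 and 6.08 with casein.

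Among carriers of cationic amino acids, Slc7a2 was expressed and Slc7a1 lay just under the threshold. Slc7a2 stood at 11.26, 11.54, 11.68 and 10.60 with casein, 10.81, 11.06, 10.39 and 11.07 with dairy, and 11.68, 11.58, 11.01 and 11.35 with leucine. The dairy livers overlapped casein only through casein replicate 4, which at 10.60 was the lowest non-dairy liver, and met leucine between 11.01 and 11.07. Leucine exceeded dairy by 0.57 ± 0.247 (SE; 1.49-fold, unadjusted p = 0.0382, limma adjusted p = 0.708). Dairy differed from casein by -0.44 ± 0.247 and leucine from casein by 0.13 ± 0.247 (SE), the second turning sign in 2 alternatives. Without casein replicate 4 the dairy difference was -0.66 (limma adjusted p = 0.122).

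The heavy chain Slc3a2 was expressed, while its light chains had low signals. Slc3a2 stood at 9.51, 9.23, 9.74 and 9.91 with casein, 9.12, 9.62, 8.73 and 10.42 with dairy, and 9.50, 8.80, 9.36 and 10.02 with leucine. Dairy replicates 3 and 4 held the lowest and the highest value of all 12 livers. Dairy differed from casein by -0.12 ± 0.34, leucine from casein by -0.17 ± 0.34 and leucine from dairy by -0.051 ± 0.34 (SE), and the 95% interval of the first was -0.86 to 0.61. The 6 light chains Slc7a5, Slc7a6, Slc7a7, Slc7a8, Slc7a10 and Slc7a11 all had a mean of 6 or less, from 3.18 to 5.88. Levels of different probe sets are not set against each other here, since each has its own probes.

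Of the Slc43 family, Slc43a1 carries leucine and other large neutral amino acids, and Slc43a3 is known as a carrier of purine bases. Slc43a1 stood at 7.62, 7.73, 8.74 and 6.67 with casein, 7.16, 6.92, 6.88 and 7.13 with dairy, and 6.87, 7.65, 7.27 and 8.05 with leucine. The dairy livers were tight and low (SD 0.141), and casein livers ranged from below to far above them, from replicate 4 to replicate 3. The difference of dairy from casein was -0.67 ± 0.362 (SE; 1.59-fold lower, interval -1.45 to 0.12, unadjusted p = 0.0889), and single arrays moved it: leaving out casein replicate 4 gave -1.01, leaving out casein replicate 3 gave -0.32. Leucine differed from casein by -0.23 ± 0.362 and from dairy by 0.44 ± 0.362 (SE). Slc43a3 stood at 9.77, 8.91, 10.42 and 9.26 with casein, 9.04, 9.62, 8.73 and 9.52 with dairy, and 8.84, 9.92, 9.64 and 9.15 with leucine, with groups that overlapped widely. Its differences were -0.36 ± 0.334 for dairy and -0.20 ± 0.334 for leucine against casein, and 0.16 ± 0.334 for leucine against dairy (SE). Without casein replicate 3 the first was -0.086.

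Of the Slc1 family, Slc1a2, the glutamate carrier known from hepatocytes around the central vein, and Slc1a4, a carrier of alanine, serine and cysteine, were expressed. Slc1a2 stood at 5.97, 6.10, 6.68 and 7.16 with casein, 5.19, 6.35, 6.72 and 7.11 with dairy, and 6.97, 7.21, 6.63 and 7.29 with leucine. Leucine livers lay high, dairy replicate 1 was the lowest of all, and the groups overlapped. Leucine differed from casein by 0.55 ± 0.374 (SE; unadjusted p = 0.167) and from dairy by 0.68 ± 0.374 (SE; unadjusted p = 0.092), and dairy from casein by -0.13 ± 0.374 (SE). Without dairy replicate 1 leucine differed from dairy by 0.30 and dairy from casein by 0.25.

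Slc1a4 varied more between livers of a diet than any other member. It stood at 4.56, 4.59, 7.94 and 6.08 with casein, 4.99, 6.45, 5.87 and 7.64 with dairy, and 4.85, 4.91, 7.94 and 7.33 with leucine, so that each diet held livers at both ends of its range. The pooled SD within diets was 1.46, which 1.28% of expressed probe sets exceeded (median 0.368). Between diets it differed by 0.45 ± 0.882 (dairy against casein), 0.47 ± 0.882 (leucine against casein) and 0.018 ± 0.882 (leucine against dairy; SE), with a 95% interval of -1.47 to 2.36 for the first. That first difference was 1.16 without casein replicate 3, -0.020 without dairy replicate 4 and -0.61 with the mean log2 signal of 6 neutrophil markers per array as a covariate.

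Of the Slc36 family, Slc36a1, which exports amino acids from lysosomes and sits close to mTORC1 signalling, stood at 6.73, 6.48, 5.91 and 6.57 with casein, 6.64, 6.55, 6.31 and 6.09 with dairy, and 6.52, 6.52, 5.71 and 5.95 with leucine. The 3 diets overlapped widely. Its differences were -0.026 ± 0.231 (dairy against casein), -0.25 ± 0.231 (leucine against casein) and -0.22 ± 0.231 (leucine against dairy; SE). Slc7a6os, no carrier, stood at 6.90, 6.42, 6.74 and 6.35 with casein, 5.93, 6.51, 5.61 and 6.44 with dairy, and 6.39, 6.48, 6.50 and 6.55 with leucine and differed between dairy and casein by -0.48 ± 0.204 (SE; unadjusted p = 0.0355, limma adjusted p = 0.434), by -0.12 ± 0.204 between leucine and casein and by 0.36 ± 0.204 between leucine and dairy (SE).

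The 28 low-signal members had means from 2.33 to 5.88, and 20 of them stayed at or under 6 in all 12 livers. The mean of Slc1a4 (6.10) lay just inside the threshold, and those of Slc7a7 (5.88), Slc7a1 (5.88), Slc43a2 (5.82) and Slc38a7 (5.69) just outside. A log2 difference understates a change at such signals. Against casein 10 of 28 were lower with dairy (44.2% of all low-signal probe sets) and 19 of 28 lower with leucine (56.1%), and 20 of 28 were lower with leucine than with dairy (62.1%). At an unadjusted p under 0.05 stood 2 of 28 between dairy and casein (7.82% of low-signal probe sets), 0 of 28 between leucine and casein (2.73%) and 3 of 28 between leucine and dairy (4.19%).

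Carriers of leucine and other large neutral amino acids were among them. Slc43a2 stood at 5.86, 6.12, 5.90 and 5.53 with casein, 7.18, 5.79, 6.08 and 5.81 with dairy, and 5.59, 5.76, 4.69 and 5.49 with leucine. All dairy livers lay above all leucine livers, as in 4.02% of low-signal probe sets, and dairy replicate 1 lay far above the rest. Leucine differed from dairy by -0.83 ± 0.312 (SE; unadjusted p = 0.0196, limma adjusted p = 0.657) and from casein by -0.47 ± 0.312 (SE), and dairy from casein by 0.36 ± 0.312 (SE). Without dairy replicate 1 leucine differed from dairy by -0.51 and dairy from casein by 0.039. Slc7a5 stood at 4.90, 4.75, 6.21 and 5.07 with casein, 5.41, 5.91, 5.11 and 5.41 with dairy, and 4.59, 4.71, 4.77 and 5.20 with leucine, and leucine replicate 4 overlapped dairy. Leucine differed from dairy by -0.64 ± 0.293 (SE; unadjusted p = 0.0493, limma adjusted p = 0.717). Leucine differed from casein by -0.41 ± 0.293 and dairy from casein by 0.22 ± 0.293 (SE). The second system L light chain, Slc7a8, differed by 0.16 ± 0.333, -0.26 ± 0.333 and -0.42 ± 0.333 (SE) between dairy and casein, leucine and casein, and leucine and dairy. The same 3 differences were -0.17 ± 0.495, -0.34 ± 0.495 and -0.18 ± 0.495 (SE) for Slc7a6, and 0.31 ± 0.342, -0.06 ± 0.342 and -0.37 ± 0.342 (SE) for Slc7a7, light chains that exchange cationic for neutral amino acids. Casein replicate 3 was the highest casein liver for these light chains. Without it leucine differed from casein by -0.089 for Slc7a5, 0.25 for Slc7a6 and 0.076 for Slc7a8.

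Slc38a1, a system A carrier of brain and other tissues, stood at 3.50, 3.36, 3.66 and 3.98 with casein, 4.06, 3.84, 4.12 and 3.89 with dairy, and 3.66, 3.62, 3.45 and 3.81 with leucine. All dairy livers lay above all leucine livers, and only casein replicate 4 reached the dairy range. Dairy differed from casein by 0.35 ± 0.155 (SE; unadjusted p = 0.0419) and leucine from dairy by -0.34 ± 0.155 (SE; unadjusted p = 0.0459), with limma adjusted p = 0.443 and 0.708. Slc7a15 stood at 4.16, 3.84, 3.78 and 4.16 with casein, 4.37, 4.58, 4.16 and 4.28 with dairy, and 3.93, 3.88, 4.29 and 4.35 with leucine, with all dairy livers at or above the highest casein liver (3.02% of low-signal probe sets did not overlap, and between leucine and casein, where 0 of 28 members had no overlap, 2.08%). It differed between dairy and casein by 0.36 ± 0.162 (SE; unadjusted p = 0.0437). The lysosomal arginine sensor Slc38a9 differed by -0.65 ± 0.427 between dairy and casein and by -0.36 ± 0.427 between leucine and casein (SE). The first was -0.34 without dairy replicate 3, and the second was -0.10 without casein replicate 1. The lysosomal carrier Slc38a7 differed in these comparisons by -0.03 ± 0.194 and -0.31 ± 0.194 (SE).

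For the other key carriers named next the differences from casein were smaller than their SEs. Dairy and leucine differed from casein by -0.049 ± 0.184 and -0.025 ± 0.184 for the glutamate carrier Slc1a1, by -0.0026 ± 0.374 and 0.0062 ± 0.374 for the glutamine carrier Slc1a5, and by 0.074 ± 0.176 and -0.17 ± 0.176 for Slc36a4 (SE). The cystine carrier Slc7a11 differed by 0.16 ± 0.427 and -0.17 ± 0.427 (SE), and casein replicate 3 (4.62) was its highest liver.

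**Figure D3:**
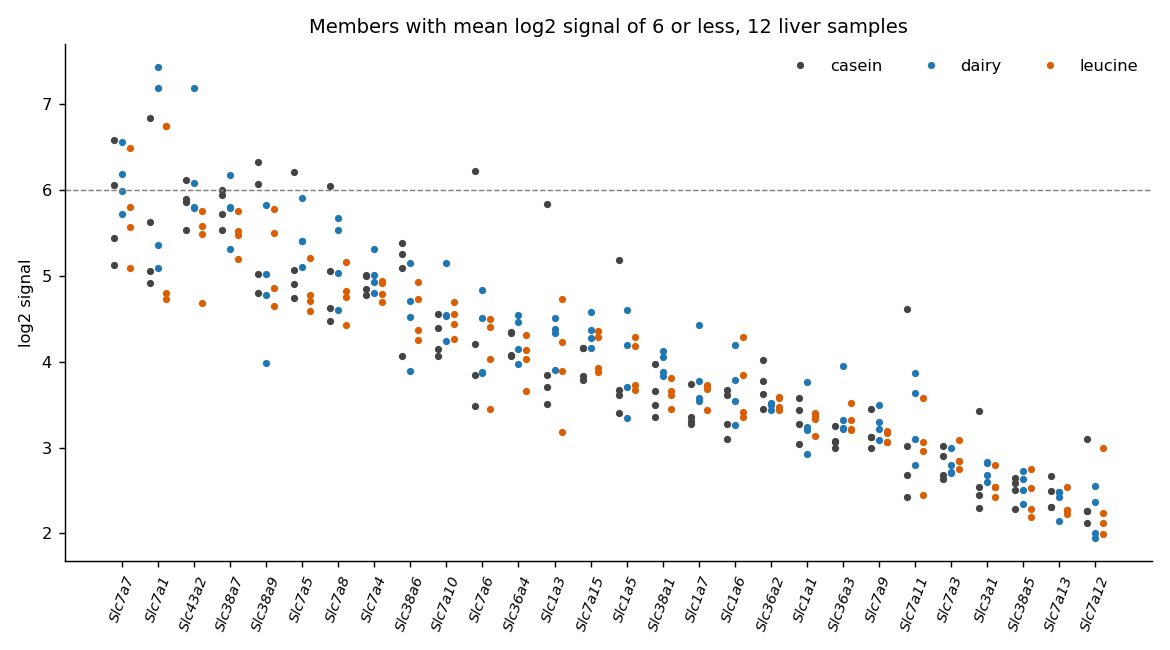
Log2 signal of the 28 low-signal members in the 12 liver samples, coloured by diet, ordered by mean; the dashed line marks a log2 signal of 6. Most lie below the line in every liver, and Slc7a1 reaches 5.10, 7.43, 5.37 and 7.19 with dairy.

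Some carriers varied between livers of the same diet together with neutrophil markers. The neutrophil marker score is the mean log2 signal of Csf3r, Ncf1, S100a9, Mmp9, Fpr1 and S100a8 on an array. All 6 had a mean of 6 or less, and the score ran from 3.72 to 6.53, with no gap wider than 0.712. It was 3.72 to 5.67 with casein, 4.02 to 6.53 with dairy and 3.72 to 6.15 with leucine. Slc7a1, which brings arginine and lysine into many cell types, stood at 4.91, 5.06, 6.84 and 5.63 with casein, 5.10, 7.43, 5.37 and 7.19 with dairy, and 4.73, 4.80, 6.75 and 6.75 with leucine, and its signal was highest in dairy replicates 2 and 4, casein replicate 3 and leucine replicates 3 and 4, the livers with the highest scores. Across the 12 livers Slc7a1 correlated with the score at Pearson's r = 0.952 (permutation p = 2.00e-05, adjusted over 15304 probe sets 0.00528) and Spearman's rho = 0.888 (permutation p = 2.10e-04, adjusted 0.0181). Slc1a4 did so at r = 0.918 (permutation p = 1.50e-04, adjusted 0.0111) and rho = 0.937 (permutation p = 4.00e-05, adjusted 0.0106). Slc7a11 followed at r = 0.779 (permutation p = 0.00223, adjusted 0.0372) and rho = 0.853 (permutation p = 7.50e-04, adjusted 0.0277).

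These 3 of 39 members passed with a positive r, as did 4.3% of the probe sets tested; 0 members passed with a negative r, beside 3.65%. Without the 2 livers whose scores lay farthest from the median (dairy replicate 4 and leucine replicate 3) r was 0.964 for Slc7a1, 0.885 for Slc1a4 and 0.818 for Slc7a11. Within diets, on deviations from each diet's mean, r was 0.955, 0.938 and 0.811 (adjusted p = 0.0356, 0.0313 and 0.0458, permutations within diets). These 3 of 39 members passed within diets, beside 5.16% of the probe sets tested. Among expressed members it was 1 of 11, beside 8.01% of expressed probe sets. The points share arrays with the score, and which cells the carrier RNA came from was not tested. Of the cell type lists only the neutrophil markers were correlated with the members. An r above 0.7 was found for 5 of 39 members (6.46% of the probe sets tested) and one below -0.7 for 1 (6.42%). Slc7a8 (r = 0.747), Slc1a5 (0.743), Slc7a6 (0.641) and Slc7a5 (0.556) had positive r that did not pass (adjusted permutation p from 0.0542 to 0.244), and Slc36a1 had r = -0.726 (adjusted permutation p = 0.0801).

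**Figure D4:**
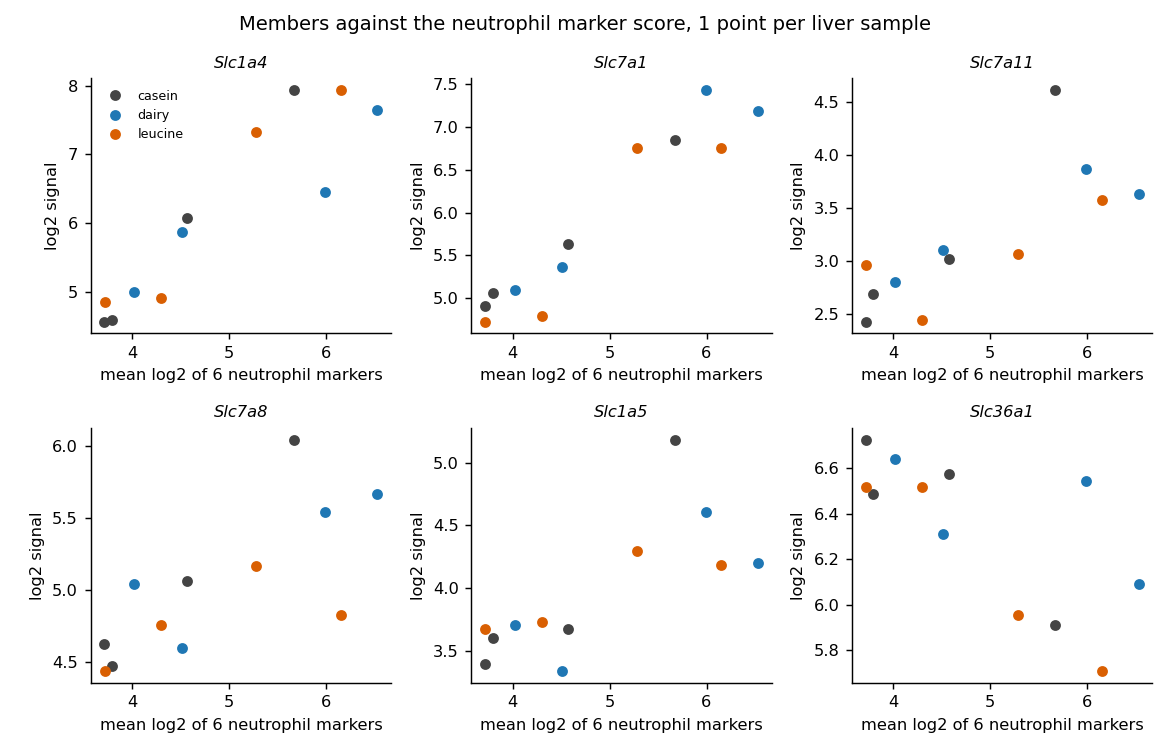
Log2 signal of 6 members against the neutrophil marker score (mean log2 signal of 6 markers), 1 point per liver sample, coloured by diet. Slc1a4 and Slc7a1 are high in the livers with high scores (r = 0.918 and 0.952), and Slc36a1 is low in most of them (r = -0.726).

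With the amino acid response score, the mean over 21 measured genes of that response outside the families, 0 of 39 members passed in either direction (0.111% of probe sets passed with a positive and 0.556% with a negative r, by permutation). Slc38a4 came nearest, at r = -0.805 (permutation p = 7.60e-04, adjusted over 15287 probe sets 0.0582) and rho = -0.874 (permutation p = 3.80e-04, adjusted 0.0743). Its r was -0.781 without the 2 livers of most extreme score, casein replicate 1 and dairy replicate 4, and -0.736 within diets (permutation p = 0.0136, adjusted 0.331). Slc38a3 had rho = -0.874 too (adjusted permutation p = 0.0743), with r = -0.696 (adjusted permutation p = 0.157). An r below -0.7 was found for 2 of 39 members, Slc38a4 and Slc38a9 (-0.72), beside 5.25% of the probe sets tested. The members that passed with the neutrophil marker score also had positive r here. It was 0.681 for Slc1a4, 0.627 for Slc7a1 and 0.504 for Slc7a11 (adjusted permutation p = 0.15, 0.21 and 0.36). Within diets it was 0.805, 0.651 and 0.642 (adjusted permutation p = 0.33, 0.36 and 0.38). The largest positive r over all livers was that of Slc7a10 (0.684, adjusted permutation p = 0.17). The other carriers named at the outset as raised by ATF4 were Slc38a2, Slc3a2 and Slc7a5. Their r was 0.26, 0.40 and 0.27 over all livers. Within diets it was 0.727, 0.679 and 0.323 (adjusted permutation p = 0.34, 0.33 and 0.78).

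Amino acid carriers outside the 6 families were measured for 24 of 30 listed genes, of which 0 passed limma's threshold in any comparison. At an unadjusted p under 0.05 stood 3 of the 24 between dairy and casein, all lower with dairy, where 10.9% of all probe sets had such a p. Between leucine and casein 1 did (Slc25a44, -0.56 ± 0.213 SE; 3.31% of all probe sets), and between leucine and dairy 3 (6.95%). Slc16a10, which lets aromatic amino acids leave cells, stood at 8.80, 8.54, 8.81 and 9.40 with casein, 6.59, 7.53, 6.68 and 8.58 with dairy, and 8.58, 9.46, 8.63 and 9.82 with leucine. The dairy livers lay low, and only dairy replicate 4 reached the range of casein or leucine. Dairy differed from casein by -1.54 ± 0.42 (SE; unadjusted p = 0.00302, limma adjusted p = 0.246) and leucine from dairy by 1.78 ± 0.42 (SE; unadjusted p = 0.00108, limma adjusted p = 0.604). The mitochondrial ornithine carrier Slc25a15 differed between dairy and casein by -0.88 ± 0.366 and the mitochondrial glycine carrier Slc25a38 by -0.35 ± 0.145 (SE; limma adjusted p = 0.427 and 0.426). Between leucine and dairy the other 2 were the taurine carrier Slc6a6 (-0.76 ± 0.318) and the lysosomal cationic carrier Slc66a1 (-0.77 ± 0.286, SE).

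Genes of the amino acid response outside the families were mostly higher than with casein, both with dairy and with leucine. Of 21 measured, 0 passed limma's threshold. Between dairy and casein 14 were higher and 7 lower, where 53.1% of all probe sets were lower. The median difference was 0.43, beside -0.022 over all 15310 probe sets. For the 13 genes with a mean log2 above 6 it was 0.25, beside -0.16 over expressed probe sets. At an unadjusted p under 0.05, 6 were higher with dairy than with casein (4.59% of all probe sets were). At that p 1 was lower (6.32% of all probe sets were), the transsulfuration enzyme Cth (-0.66 ± 0.289 SE). Phgdh and Psat1, enzymes of serine synthesis, differed by 1.43 ± 0.356 and 1.22 ± 0.397, the kinase-like Trib3 by 1.16 ± 0.306 and asparagine synthetase Asns by 1.20 ± 0.482 (SE). Trib3 stood at 4.84, 4.58, 4.59 and 4.99 with casein, 5.77, 5.59, 5.99 and 6.30 with dairy, and 4.70, 4.19, 5.13 and 5.95 with leucine. Its signal was low, above 6 only in dairy replicate 4. Every dairy liver lay above every casein liver, and 3.02% of low-signal probe sets had no overlap between these 2 diets. Some carriers known as targets of this response stood, between the same diets, at -0.12 (Slc3a2), -0.44 (Slc38a2), 0.22 (Slc7a5), 0.16 (Slc7a11) and 0.66 (Slc7a1). Their SEs ran from 0.293 to 0.662, and the list is not complete. Slc1a4 and Slc38a1, whose promoter windows held the motif as that of Slc7a1 did, differed by 0.45 ± 0.882 and 0.35 ± 0.155 (SE). All 6 neutrophil markers were higher with dairy than with casein, with a median of 0.79, but only 1 had limma's unadjusted p under 0.05. With leucine 5 of the 6 were also higher than with casein (median 0.42). With the neutrophil marker score as a covariate the difference of dairy from casein was -0.15 for Slc7a1 and -0.27 for Slc7a11. For Slc7a5 it was near 0. With array weights it was 1.66 for Slc7a1, 0.77 for Slc7a11, 0.66 for Slc7a5, 0.28 for Slc3a2 and 0.019 for Slc38a2. The heaviest dairy arrays were replicates 2 and 4 (weights 2.83 and 1.39), with neutrophil marker scores of 5.99 and 6.53. The heaviest casein arrays were replicates 2 and 1 (weights 2.09 and 1.58), with scores of 3.79 and 3.72. The part of neutrophils in these differences was not tested. Between leucine and casein 16 of the 21 genes were higher and 5 lower, where 56.2% of all probe sets were lower. The median was 0.18, beside -0.029 over all probe sets. For the 13 genes with a mean log2 above 6 it was 0.26, beside -0.033 over expressed probe sets. At an unadjusted p under 0.05 stood 2 of the 21 genes (3.31% of all probe sets), Ddit4 (0.77 ± 0.35) and Cebpb (0.84 ± 0.324, SE).

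Markers of hepatocyte zones also stood lower with dairy than with casein. All 8 periportal markers were lower with dairy, 5 of them at an unadjusted p under 0.05 (10.5% of expressed probe sets were lower at that p), with a median of -0.85, and their mean per array was 8.89 to 9.85 with dairy, 9.91 to 10.5 with casein and 9.13 to 10.6 with leucine. Between leucine and dairy 7 of the 8 were higher with leucine, 4 of them at that p, with a median of 0.51. Of all expressed probe sets 62.6% were higher with leucine than with dairy and 7.2% were higher at that p, with a median of 0.12. Of 7 pericentral markers, 3 of them with a mean of 6 or less, 6 were lower with dairy than with casein, 3 at that p. Their median was -0.34, and their mean per array was 6.79 to 7.05 with dairy, 7.04 to 7.82 with casein and 7.22 to 7.65 with leucine. Between leucine and dairy 5 of the 7 were higher with leucine, 3 at that p, with a median of 0.46. None of these markers passed limma's threshold, and their part in the values of Slc38a4, Slc38a3, Slc7a2 and Slc16a10 was not tested. Of the general hepatocyte markers 10 of 12 were lower with dairy, with a median of -0.13, no lower than the -0.16 of all expressed probe sets, 66.2% of which were lower.

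**Figure D5:**
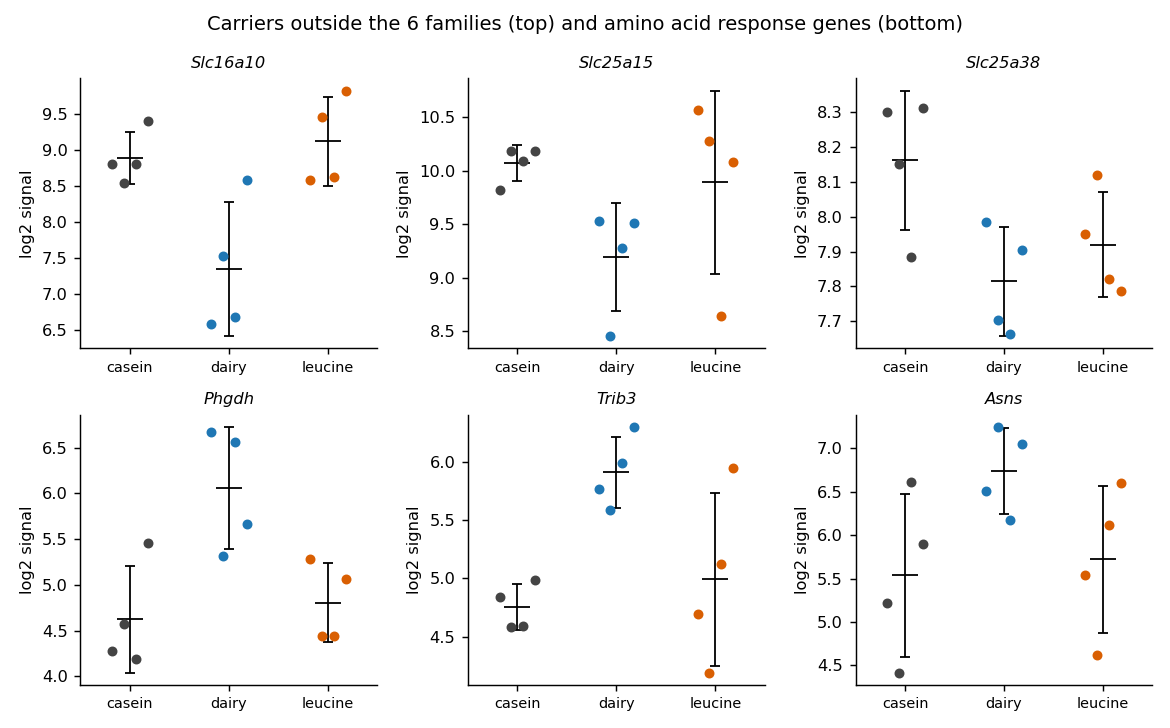
Log2 signal by liver sample of 3 carriers outside the families and 3 genes of the amino acid response (points), with diet mean and SD (bars); each panel has its own scale, which does not start at zero. Slc16a10 sits lowest with dairy (mean 7.35, beside 8.89 with casein and 9.12 with leucine), and Phgdh, Trib3 and Asns sit highest with dairy.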

How the data were processed

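Total RNA of each liver was hybridised to 1 Affymetrix Rat Gene ST array, 4 per diet. The deposited file holds log2 values, 1 per probe set and array. Per the submitters' processing notes they come from Expression Console. Its version, its algorithm and a build: not given in the sources used here. Of 29214 probe sets 15310 had exactly 1 symbol in the platform annotation; 323 had several and 13581 were not listed, and both kinds were left out. All 39 members' Entrez IDs and symbols matched the RefSeq gene table. Members and lists were chosen with earlier results of these data known.

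Differences were fitted in R 4.3.3 by limma 3.58.1 (3 diet means over all 12 arrays, lmFit and eBayes; 9 residual and 3.45 prior degrees of freedom), two-sided, with Benjamini-Hochberg adjustment over the 15310 probe sets at 0.05; the script was tested on simulated data. SEs are moderated. The number of arrays limits the precision. Correlations used 100000 two-sided permutations.

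Values per sample are given for expressed members, members whose groups did not overlap or with an unadjusted p under 0.05, and Slc7a1. The remaining low-signal key carriers, fixed by role, are given by their differences. Promoter windows came from a RefSeq table on GRCr8; no genome file was used. Alternatives covered normalization, centring, filters, moderation, weights, samples and the replicate block.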

Additional observations from a re-analysis of the deposited data

Results flagged for a closer look

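Slc38a3 in leucine replicate 2 stood at 11.9005 on the log2 scale, apart from the other leucine livers at 11.37 to 11.42, with a gap to the nearest of 0.909 of the group's range. Of the 33 diet groups of expressed members this was the only one with so wide a gap, where chance gives about 1 in 20. Among all 117 groups of members 8 had such a gap (6.84%); the other 7 were of low-signal members, among them Slc1a3 (5.84) and Slc1a5 (5.18) in casein replicate 3. Without leucine replicate 2, Slc38a3 differed between leucine and casein by -0.32, beside -0.19 with all arrays.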

How the results depend on the processing

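The count of 0 called members held under each alternative except array weights, where 1 (Slc38a4) passed between dairy and casein. The median of expressed members between dairy and casein was -0.081 with array weights and -0.13 with a threshold of mean log2 above 5; between leucine and dairy it was 0.088 with that threshold. With single arrays left out the medians ran from -0.49 to -0.26 (dairy minus casein), -0.20 to 0.071 (leucine minus casein) and 0.19 to 0.46 (leucine minus dairy). Expressed members at an unadjusted p under 0.05 numbered 1 to 5, 0 to 1 and 1 to 3 in these 3 comparisons with single arrays left out: for dairy minus casein 1 without casein replicate 1, casein replicate 3 or dairy replicate 3, and 5 without casein replicate 4; for leucine minus casein 1 without casein replicate 4, dairy replicate 3 or dairy replicate 4; for leucine minus dairy 1 without dairy replicate 3 or leucine replicate 1, 2 or 4. Between leucine and casein the count was 1 with median centring, with only the 8 arrays compared, with the replicate block and without casein replicate 4 and dairy replicate 3 together, and 2 with array weights. Between leucine and dairy it was 1 with quantile normalization, 5 with a threshold of mean log2 above 5, and 5 with the neutrophil marker score as a covariate, an alternative chosen after seeing the data. The causes were not tested. Of 25 single members followed, only Slc38a4 crossed limma's threshold (array weights). Uncalled differences turned sign in at least 1 alternative for 15 (dairy minus casein), 14 (leucine minus casein) and 7 (leucine minus dairy) of them, among expressed members for 6, 6 and 3 of 11. Slc36a4 between dairy and casein turned to -0.17 with array weights.

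Replicate numbers are not said to pair rats. Deviations from diet means correlated above 0.1 in 7 of 12 same-numbered pairs and in 14 of 36 others, and 2 of 12 arrays correlated best with their own number. With the replicate block 0 members were called, and 2, 1 and 4 expressed members had an unadjusted p under 0.05 in the 3 comparisons, against 3, 0 and 3.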
